A study of Mus musculus with 6 samples.

Results

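Cdkn1b, Map1b, Egr2 and Sirt2 encode proteins outside the myelin sheath's structural set whose RNAs have been reported as bound by quaking in myelinating cells. They were found by gene name in the deposited table, and all 4 of 4 were present once and passed the filter on low values, among 15153 features tested of 46983. RNA was taken from mouse brain oligodendrocytes, which make myelin around central axons, directly after isolation and with no time in culture. The 3 Qk-KO libraries are from Plp-CreERT2;QKLoxP/LoxP mice, in which a Cre recombinase that acts only after tamoxifen, driven by the promoter of the myelin gene Plp, deletes a floxed part of Qk, and the 3 libraries labelled WT are from control mice. Both groups were of a FvB/C57BL6 hybrid strain, received tamoxifen at 8 weeks of age and were sampled 4 days later. The labels do not say whether the controls carried the Cre or the floxed alleles. They also do not say that the 3 libraries of a group came from different mice, and p-values then cover the spread between libraries only, which may be technical.

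Quaking is an RNA-binding protein of the STAR family. Its nuclear form acts on splicing and on the retention of RNAs in the nucleus, and its cytoplasmic forms act on RNA stability and translation, mostly through elements in 3' untranslated regions (UTRs). It is known for its part in oligodendrocyte differentiation and in the processing of myelin RNAs. Cdkn1b encodes p27Kip1, an inhibitor of cyclin-dependent kinases that holds precursors out of the cell cycle as they differentiate. Map1b encodes a microtubule-associated protein of growing cell processes. Egr2, also called Krox20, encodes the zinc-finger transcription factor that directs myelination in Schwann cells, the myelin-forming cells of peripheral nerves. Sirt2 encodes an NAD-dependent deacetylase of tubulin and other proteins that is abundant in oligodendrocytes and myelin.

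The sequence quaking prefers has a core, ACTAAC or ACTAAT in DNA letters, with a partner of TAAC or TAAT nearby. Both cores were searched on the sense strand of 1 annotated coding transcript per gene, with a partner counted where it lay 1 to 20 bases from the core without overlapping it. The letters were in the 3' UTR of Cdkn1b and Egr2 but not in that of Map1b or Sirt2 in the transcripts searched. The stretches that hold them are shown because they are the parts of these RNAs that quaking's known preference points to. Capitals mark the core and, where there is one, the nearest partner, and coordinates are GRCm38 (mm10).
Cdkn1b 3' UTR, first core, chr6:134922878-134922907, plus strand: ACTAATgctcccacagaattgatttTAACc
Cdkn1b 3' UTR, second core, chr6:134925258-134925287, plus strand: actgaaaattatACTAACttatttatgtta
Egr2 3' UTR, first core, chr10:67541748-67541777, plus strand: agtcaaaggttaACTAACttatttaaaggg
Egr2 3' UTR, second core, chr10:67542104-67542133, plus strand: attcTAACataaaaaaaccACTAACtggag
Cdkn1b coding sequence, chr6:134921027-134921056, plus strand: caatcatgaagaACTAACccgggacttgga
Map1b coding sequence, chr13:99434845-99434874, minus strand: agacaaggccgaACTAATcctgcccaatgg

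The first core in the Cdkn1b 3' UTR began 804 bases into a UTR of 3439 bases and had its partner 19 bases after it. The second began at base 3196 and had no partner within reach. In Egr2 the 3' UTR was 1200 bases long, with cores at bases 772 and 1135, and only the second had a partner, 11 bases before it. Such letters are common: 33.0% of 13210 tested genes with an annotated 3' UTR held a core there and 13.5% a core with a partner. Among 1353 genes with a 3' UTR within 20% of the length of that of Cdkn1b, 63.9% held a core and 27.7% a core with a partner. Among 1890 genes of like 3' UTR length to Egr2, 30.8% held a core, 10.8% a core with a partner and 5.66% 2 cores or more. For Map1b, whose 3' UTR is 4360 bases, 70.7% of 959 genes of like length held a core, and for Sirt2, at 588 bases, 16.2% of 1375 genes did. Over all annotated transcripts, coding or not, a core stood somewhere in 3 of 3 for Cdkn1b, 3 of 6 for Map1b, 3 of 7 for Egr2 and 1 of 10 for Sirt2. A match is a run of letters and not a measured binding site, and its absence says only that the letters were not in the stretch searched.

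**Figure D1:**
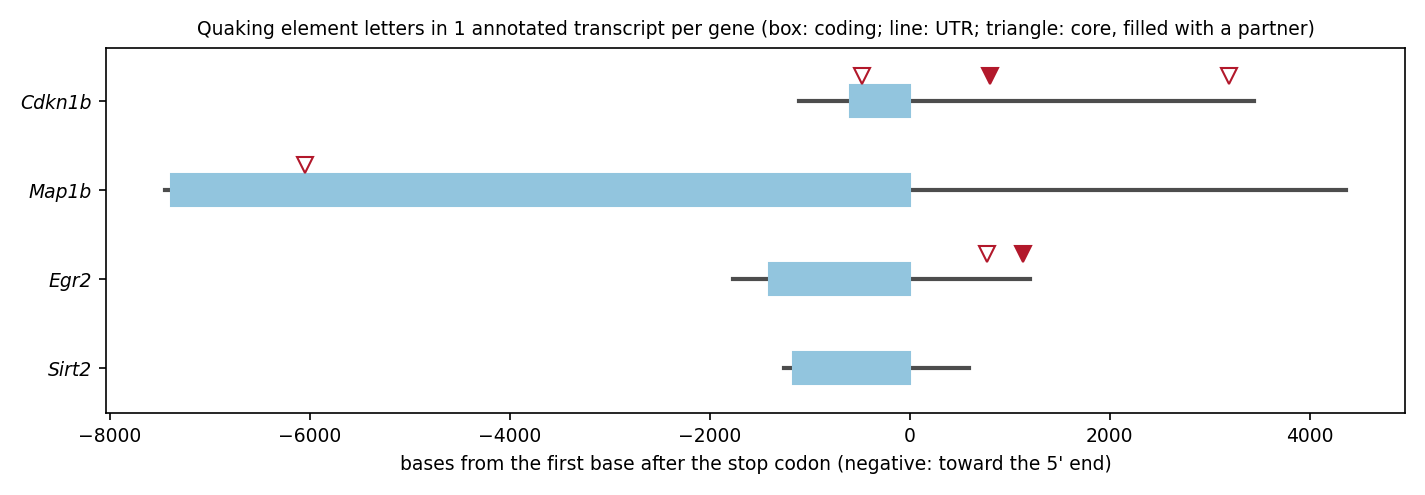
Position of each core in 1 annotated transcript per gene, in bases from the first base after the stop codon, with coding sequence as a box and UTRs as lines. Filled triangles are cores with a partner within 20 bases, 1 in the 3' UTR of Cdkn1b and 1 in that of Egr2, and no triangle stands over the 3' UTR of Map1b or Sirt2.

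The libraries were of 2 kinds. In the 3 WT libraries and Qk-KO replicate 1, 4 ribosomal RNA features took 59.8% to 64.8% of the signal, against 2.23% and 1.88% in Qk-KO replicates 2 and 3. Reads outside these features, estimated from the table, came to about 8700000 to 13100000 in the former and to about 77100000 and 70000000 in the latter. Library kind and genotype are therefore partly confounded, and within the kind with a high ribosomal share only Qk-KO replicate 1 can be set against WT. In fits without Qk-KO replicate 1, kind and genotype coincide wholly. Values are the deposited log2 values, which look like regularized log2 values: they are scaled by size factors, and weakly read genes are drawn in toward their own average. Changes are Qk-KO minus WT with the standard error (SE) from limma, and a gene is called at a Benjamini-Hochberg adjusted p under 0.05 over all features tested. Called features made up 28.6% of those tested, 13.8% higher and 14.8% lower in Qk-KO. Counts of called genes in the lists below are to be read against these shares. Directions depend on this scaling. Higher features made up 48.2% of those called as deposited and 97.3% with scaling by all reads, ribosomal ones included. The latter moved the median change of all features from 0.03 to 1.09. It adds the same amount to the change of every gene. Every rise then keeps its sign, and every fall smaller than that amount turns. Such turns are therefore not particular to a gene. All changes below are read against the median gene. Qk as a whole gene was not called, with log2 values from 15.31 to 15.67 in WT and of 16.10, 15.62 and 15.30 in Qk-KO replicates 1, 2 and 3. Reads over its remaining exons still count, so the deletion cannot be checked by this value. All 10 oligodendrocyte markers were detected and their summed level was 505336 to 659341 in WT and 691862 to 774613 in Qk-KO, on the linear scale of normalized counts.

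Of the 4 RNAs, Egr2 was higher in Qk-KO, and the other 3 were not called with all 6 libraries. Set against the 28.6% of all features called, 1 of 4 is near the background. Egr2 rose by 1.61-fold. Cdkn1b had a lower mean in Qk-KO, with a change that came almost wholly from replicates 2 and 3, and its adjusted p just missed the threshold. Sirt2 had a higher mean, most of it from replicate 1, and Map1b had nearly equal means with Qk-KO libraries on either side of WT.

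**Figure D2:**
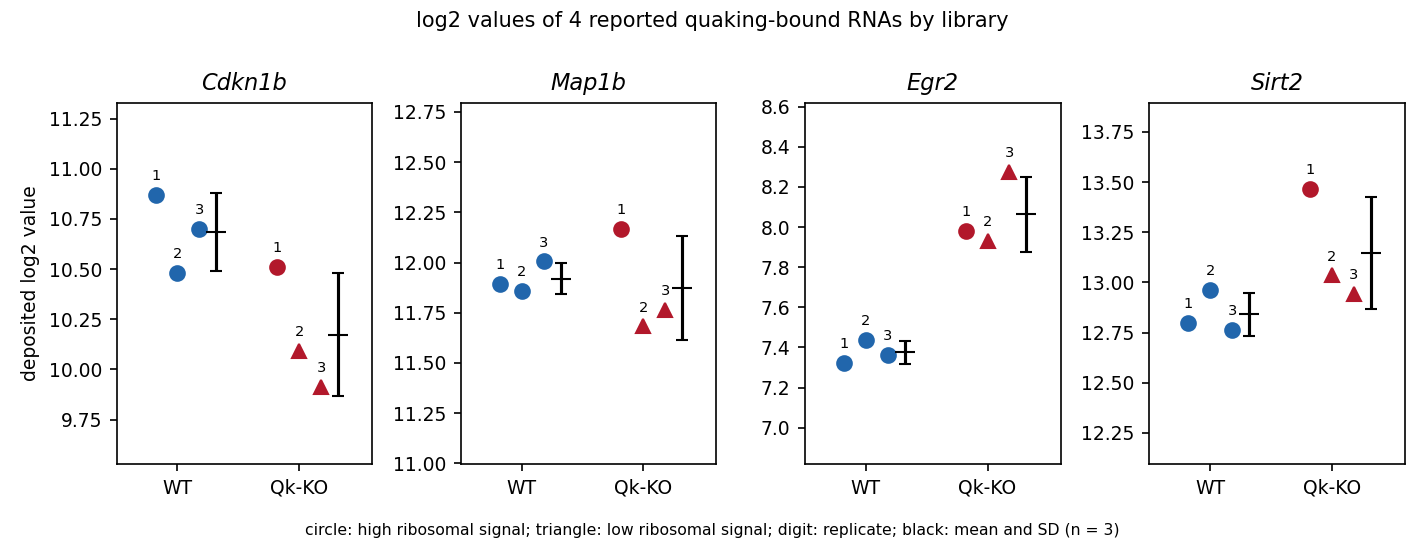
Deposited log2 values of the 4 genes, 1 point per library with its replicate number, blue for WT and red for Qk-KO, circles for libraries with a high and triangles for those with a low ribosomal share, and the mean with its SD (n = 3) in black. The Qk-KO points of Egr2 lie between 7.93 and 8.27, above all WT points, while those of the other 3 genes overlap or straddle WT.

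Egr2 (ENSMUSG00000037868.15, chromosome 10, 67535475 to 67542188, plus strand) had log2 values of 7.32, 7.44 and 7.36 in WT replicates 1, 2 and 3. In Qk-KO replicates 1, 2 and 3 it had 7.98, 7.93 and 8.27. Every Qk-KO library was above every WT library, which was so, in either direction, for 46.3% of all features tested. The means were 7.38 ± 0.06 in WT and 8.06 ± 0.19 in Qk-KO (SD, n = 3 each). The change was 0.69 ± 0.15 (SE), with a 95% interval from 0.34 to 1.03 and a limma adjusted p of 0.0121. It was larger than that of 92.6% of all features tested. An exact two-sided permutation test over the libraries gave 0.1, the smallest p that 3 against 3 allows. The authors' deposited table gives a log2 fold change of 1.01 ± 0.26 (SE) with an adjusted p of 0.00102, a larger size on values that are not shrunken in the same way. In Qk-KO replicate 1 alone against WT, where both sides have a high ribosomal share, the change was of like size at 0.61 ± 0.22 (SE) but did not pass (limma adjusted p = 0.106). Egr2 was the least read of the 4, with an estimated 73.6 to 83.4 reads in the WT libraries, 156.1 in Qk-KO replicate 1, and 1013 and 1171 in replicates 2 and 3.

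Egr2 is not restricted to myelinating cells: myeloid cells express it, and it belongs to a family of genes that respond within minutes to stimulation. Of 10 microglia markers 5 rose and 5 did not pass in the same libraries, with none at 0, and the authors' deposited table calls 2. Their summed level was 7766 to 11906 in WT and 19281, 20975 and 74584 in Qk-KO replicates 1, 2 and 3. Qk-KO replicate 3 was the highest library for both this sum and Egr2. The other orders differed: Qk-KO replicate 1 was above replicate 2 for Egr2 but not for the sum. In WT, replicate 1 had the highest sum and the lowest Egr2, and replicate 2 the lowest sum and the highest Egr2. The part of these cells in the rise of Egr2 was not tested. In bulk RNA, more cells of a type and more RNA per cell cannot be told apart. Of 21 immediate early genes tested, which mark the stress of cell isolation among other stimuli, 2 rose and 5 fell, beside 28.6% of all features called. The activity-regulated gene Arc rose by 1.05 ± 0.17 and Klf6 by 0.55 ± 0.16. Egr3, the close relative of Egr2, fell from 6.50 to 7.11 in WT to 6.19, 5.68 and 5.85 in Qk-KO. Klf2 fell by 0.92, Nr4a2 fell by 0.87 and Klf4 fell by 0.74. With scaling by all reads the change of each of these 4 genes had the opposite sign. Egr1 was not called (-0.69 ± 0.35, adjusted p = 0.169), with Qk-KO values of 12.29, 10.97 and 11.07 against 11.73 to 12.41 in WT, and was called without Qk-KO replicate 1 (-1.12 ± 0.20, adjusted p = 0.00536). Only Arc among the 7 called genes stayed called without any 1 library, and the number called in the list was 1 without WT replicate 1 and 2 without WT replicate 3 or Qk-KO replicate 2.

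Among the factors that act with Egr2 in Schwann cells and its Nab corepressors, 3 of 12 tested rose, Egr2 included, and 2 fell. Pou3f2, a POU factor that works upstream of Egr2 in the Schwann cell lineage, fell by 2.56 ± 0.26. Its log2 values were 9.15 to 9.22 in WT and 7.18, 6.65 and 6.08 in Qk-KO. Markers of several other cell types also changed in these libraries, and the part of such cells in this fall was not tested. The repressor Zeb2 rose by 0.63 ± 0.17 and the histone deacetylase gene Hdac2 by 0.40 ± 0.11. Sox10, the lineage factor that acts beside Egr2, had a change of 0.15 ± 0.15 and Nab1 and Nab2 of -0.09 and -0.20, none of them called. Egr2 and Pou3f2 kept their calls without any 1 library, and only 2 genes of the list were called when WT replicate 1 or 3, or Qk-KO replicate 2, was left out. In Qk-KO replicate 1 alone against WT the called genes of the list were Pou3f2 and Zeb2, and Egr2 was not among them.

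Of 12 tested genes that Egr2 is known to control in Schwann cells, 3 rose and 5 fell, with a median change of -0.69 against 0.03 over all features tested. The connexin gene Gjb1 rose by 1.07 ± 0.16, Mag by 1.11 ± 0.24 and Mbp by 1.07 ± 0.26. Fatty acid synthase, Fasn, fell by 1.06 ± 0.12, the tetraspan myelin gene Pmp22 fell by 1.56 ± 0.18, the desaturase gene Scd2 fell by 1.34 ± 0.21 and Ndrg1 fell by 0.74 ± 0.13. The list thus did not move in 1 direction, and with scaling by all reads Ndrg1 had the opposite sign. Pmp2 was at 0. Mag and Mbp lost their calls when WT replicate 1 or 3, or Qk-KO replicate 2, was left out (adjusted p up to 0.0627 and 0.0926).

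Cdkn1b (ENSMUSG00000003031.14, chromosome 6, 134920401 to 134925513, plus strand) had log2 values of 10.87, 10.48 and 10.70 in WT replicates 1, 2 and 3. In Qk-KO replicates 1, 2 and 3 it had 10.51, 10.09 and 9.91. Replicate 1 lay within the WT range and replicates 2 and 3 below it, so the groups overlapped. The means were 10.68 ± 0.20 in WT and 10.17 ± 0.31 in Qk-KO (SD, n = 3 each), a 1.43-fold lower level. The change was -0.51 ± 0.18 (SE), with a 95% interval from -0.92 to -0.10 before adjustment and a limma adjusted p of 0.0631. The exact two-sided permutation p was 0.2. The authors' deposited table has -0.59 ± 0.24 (SE) and an adjusted p of 0.0498, just inside the threshold that 32.9% of features with an adjusted p there passed. Whether Cdkn1b is called thus turned on the tool and the libraries. Qk-KO replicates 2 and 3, which carried most of the fall, are the 2 libraries with a low ribosomal share. The fall therefore cannot be told apart from library kind. Without Qk-KO replicate 1, where kind and genotype coincide, the change was -0.68 ± 0.14 (limma adjusted p = 0.00961). Replicate 1 by itself differed from WT by -0.17 ± 0.18. The depth does not limit this comparison much, since the 4 libraries with a high ribosomal share had an estimated 687 to 941 reads each and the other 2 had 4531 and 3648.

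Markers of other cells that the isolation could hold moved in the same libraries. Of 10 astrocyte markers 9 fell, from a summed level of 98550 to 123815 in WT to 22739, 25748 and 16790 in Qk-KO replicates 1, 2 and 3. All 8 endothelial markers and 5 of 6 mural markers fell, and of 7 precursor markers 2 fell. The precursor sum was 15158 to 25708 in WT and 14329, 12796 and 6531 in Qk-KO replicates 1, 2 and 3. As for Cdkn1b, replicate 1 was the highest and replicate 3 the lowest of the Qk-KO libraries. In WT, replicate 2 was the lowest for both, but replicate 3 had the highest sum and replicate 1 the highest Cdkn1b. The part of these cells in the values of Cdkn1b was not tested.

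Among 20 tested cyclin-dependent kinase inhibitors and their partners, 2 rose, 2 fell and 16 did not pass, with a median change of -0.14. Over all features 28.6% were called. The D-type cyclin genes Ccnd2 and Ccnd3, which drive the kinases that enter the cell cycle, fell by 1.30 ± 0.15 and fell by 0.72 ± 0.16, the latter with the opposite sign under scaling by all reads. For Ccnd2 the WT log2 values of 10.19, 10.33 and 10.10 lay well above the 9.19, 8.72 and 8.81 of Qk-KO. Cdkn2d, which encodes the INK4-type inhibitor p19, rose by 0.80 ± 0.12, and the pocket protein gene Rbl2, which holds cells in quiescence, by 0.64 ± 0.11. The closest relatives of Cdkn1b in the CIP/KIP family were not called, Cdkn1a at -0.21 ± 0.16 (SE, adjusted p = 0.368) and Cdkn1c at -0.33 ± 0.15 (adjusted p = 0.132). Skp2, which marks p27Kip1 for degradation, was at -0.04 ± 0.24 (adjusted p = 0.920). The call of Ccnd3 was lost without WT replicate 1 or 3 (adjusted p up to 0.0545), and the other 3 calls held without any 1 library. Of 6 tested proliferation genes Pcna rose by 0.44 ± 0.13, a call held in only 1 of the 6 fits that leave out a library. Without WT replicate 3, Mcm2 and Top2a were called in its place (0.82 and 0.91). Mki67 was spread too widely to compare, from 6.21 to 9.16 within WT.

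Sirt2 (ENSMUSG00000015149.13, chromosome 7, 28766735 to 28788661, plus strand) had log2 values of 12.80, 12.96 and 12.76 in WT replicates 1, 2 and 3. In Qk-KO replicates 1, 2 and 3 it had 13.47, 13.04 and 12.94. Replicate 1 stood well above WT, replicate 2 slightly above it and replicate 3 within it. The means were 12.84 ± 0.11 in WT and 13.15 ± 0.28 in Qk-KO (SD, n = 3 each), and the change was 0.31 ± 0.16 (SE, limma adjusted p = 0.190). The 95% interval, from -0.07 to 0.68, allows a rise of that size as well as no change. The authors' deposited table gives 0.37 ± 0.20 (SE) with an adjusted p of 0.166. In Qk-KO replicate 1 alone against WT the change was 0.62 ± 0.15 and passed (adjusted p = 0.0293), as did 15.5% of all features in that contrast, where the spread of Qk-KO is taken to equal that of WT. Without replicate 1 the change was 0.15 ± 0.11 (adjusted p = 0.340). Qk showed the same order of Qk-KO libraries, with replicate 1 the highest and replicate 3 the lowest. Sirt2 shares exonic sequence with Nfkbib on the opposite strand, and the strandedness of the counts is not given in the sources used here. Nfkbib was far less abundant, with a mean normalized count of 392 against 8316 for Sirt2, and its change was 0.20 ± 0.13 (adjusted p = 0.287).

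Among 14 genes of the sirtuin family, tubulin acetylation and NAD supply, 2 rose, 2 fell and 10 did not pass. The share called is near the 28.6% of all features. Sirt7, the nucleolar sirtuin, rose by 0.72 ± 0.15, from 9.32 to 9.66 in WT to 9.92, 10.29 and 10.36 in Qk-KO. Hdac11, a deacetylase gene expressed in oligodendrocytes, rose by 0.77 ± 0.14. Hdac6, which encodes the other main tubulin deacetylase, fell by 0.54 ± 0.13. Atat1, whose product acetylates tubulin and so opposes Sirt2, fell by 0.89 ± 0.21, with values of 9.59 to 9.79 in WT and of 9.33, 8.68 and 8.48 in Qk-KO. With scaling by all reads Hdac6 and Atat1 had the opposite sign. Sirt1 and Sirt3 to Sirt6 were not called, with changes from -0.14 to 0.39. Only the call of Hdac11 held without any 1 library. Leaving out WT replicate 3 gave 2 called genes, Hdac11 and Nmnat1, and leaving out Qk-KO replicate 2 gave 1, and Qk-KO replicate 1 alone put Atat1 at -0.39 (adjusted p = 0.156).

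Map1b (ENSMUSG00000052727.5, chromosome 13, 99421446 to 99516540, minus strand) had log2 values of 11.89, 11.86 and 12.01 in WT replicates 1, 2 and 3. In Qk-KO replicates 1, 2 and 3 it had 12.17, 11.68 and 11.76. Replicate 1 was above all WT libraries and replicates 2 and 3 were below all of them. The means were 11.92 ± 0.08 in WT and 11.87 ± 0.26 in Qk-KO (SD, n = 3 each), and the change was -0.05 ± 0.15 (SE, limma adjusted p = 0.831). The 95% interval from -0.39 to 0.29 leaves out a change as large as the 0.69 of Egr2. The authors' deposited table gives -0.04 ± 0.20 (SE) with an adjusted p of 0.919. Set against WT alone, Qk-KO replicate 1 gave 0.25 ± 0.13. Without that library the change was -0.20 ± 0.10 (limma adjusted p = 0.167). The sign also turned when Qk-KO replicate 2 or 3 was left out (0.046 and 0.0048). Of the Qk-KO libraries only replicate 1 had a high ribosomal share, so library kind cannot be told from that library. Neurons express Map1b strongly, and of 10 neuron markers 2 rose, Tubb3 by 1.51 and Slc17a7 by 0.82, and 8 did not pass. Their summed level was low, at 1528 to 1700 in WT and 2035, 3937 and 3755 in Qk-KO replicates 1, 2 and 3. Most of that sum in replicates 2 and 3 was Tubb3, at 3056 and 3073. Without Tubb3, a sum taken after the values were seen, the level was 771 to 956 in WT and 1092, 882 and 683 in Qk-KO replicates 1, 2 and 3. Of the 10 markers 8 were highest among the Qk-KO libraries in replicate 1, as Map1b was. The part of neuronal RNA in the values of Map1b was not tested.

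Of 22 microtubule-associated proteins and tubulin regulators, 5 rose, 1 fell and 16 did not pass, with a median change of 0.13. This share of calls, too, is near the 28.6% of all features. The stathmin genes Stmn3 and Stmn1, whose products bind free tubulin, rose by 0.95 ± 0.16 and 0.85 ± 0.14. Tppp3, a tubulin polymerization-promoting protein gene, rose by 1.09 ± 0.21, and Map7, which encodes a kinesin cofactor on microtubules, by 0.82 ± 0.19. Dpysl5, a collapsin response mediator gene of developing cells, fell by 1.09 ± 0.24. The closest relative of Map1b, Map1a, was not called (0.44 ± 0.26, adjusted p = 0.222) and had 15.27 in Qk-KO replicate 1 against 14.40 and 14.43 in replicates 2 and 3, so replicate 1 was the highest of the Qk-KO libraries for both genes. Map2 was not called either (-0.61 ± 0.21, adjusted p = 0.0654), but was without Qk-KO replicate 1 (-0.87 ± 0.11, adjusted p = 0.00158). Stmn3, Stmn1 and Tppp3 kept their calls without any 1 library, and 3 genes of the list were called without Qk-KO replicate 2.

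**Figure D3:**
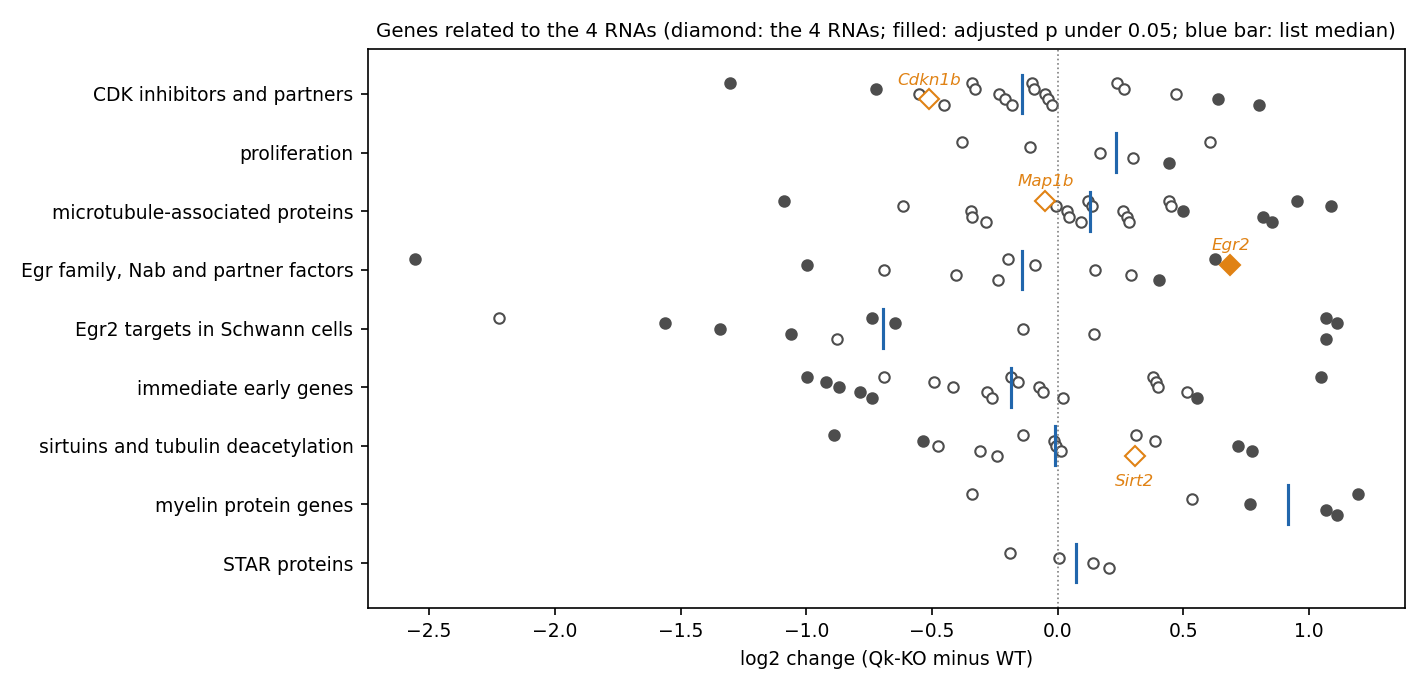
Change (log2, Qk-KO minus WT) of each tested gene of the lists related to the 4 RNAs, filled where the limma adjusted p is under 0.05, with the 4 RNAs as diamonds and the list median as a blue bar. Egr2 at 0.69 is the only filled diamond, and called genes lie on both sides of 0 in the kinase inhibitor, microtubule, Egr family, Egr2 target, immediate early and sirtuin lists.

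Myelin genes and quaking's own family set these RNAs in context. Of 6 myelin protein genes, among them Mbp and Mag, whose RNAs are also reported as quaking-bound, 4 rose. Mog rose by 1.19 ± 0.18 and Mobp by 0.76 ± 0.21, beside the values of Mag and Mbp given above. Only 1 of them, Mog, was called when WT replicate 1 or 3, or Qk-KO replicate 2, was left out. The tested STAR proteins, Qk, Sf1, Khdrbs1 and Khdrbs3, were not called by limma in 4 of 4, with none at an unadjusted p under 0.05 and none called in the authors' deposited table. Their changes ran from -0.19 for the splicing factor gene Sf1 to 0.21 for Qk, and Sf1 was called without Qk-KO replicate 1 (-0.38 ± 0.10, adjusted p = 0.0233).

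Per kilobase of exon, the WT levels of the 4 RNAs ran from Sirt2 through Cdkn1b and Map1b to Egr2. The length is that of all annotated exons of a gene joined. For Map1b it is 15846 bases, against 11808 in the transcript searched for letters. Whether Cdkn1b and Map1b separate depends on this choice. The deposited log2 values were back-transformed for this. They look drawn in for weakly read genes, so the SD of Egr2 may be too small. Per kilobase the values were 1461 ± 110 for Sirt2 and 364 ± 49 for Cdkn1b (SD, n = 3). For Map1b and Egr2 they were 245 ± 13 and 48.9 ± 2.0, and no neighbours in this order overlapped. By this measure Sirt2 stood above 97.8% of tested features in WT, and Egr2 above 32.9%. In Qk-KO, Cdkn1b and Map1b no longer separated, at 258 ± 57 and 239 ± 45, since values of 212 to 321 and of 207 to 290 overlapped. Sirt2 stayed first at 1827 ± 368 and Egr2 last at 79.1 ± 10.5.

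The genes most like each of the 4 were sought by Pearson correlation of log2 values over the 6 libraries, among 11154 named features whose mean normalized count reached 100. The libraries share genotype and kind, so these coefficients describe patterns and are given without a test. Among those nearest to Egr2 were the lysosomal peptidase gene Prcp (r = 0.995) and Cst7 (0.993), which encodes a cystatin of activated microglia. Both were called, and Cst7 went from 4.76 to 4.84 in WT to 8.08, 8.07 and 10.33 in Qk-KO, with replicate 3 the highest as for Egr2. Nearest to Cdkn1b were Mccc1, of leucine breakdown (0.994), the circadian gene Per1 (0.993) and the kinase gene Hipk1 (0.992), none of them called. For Sirt2 they were the kinase gene Ttbk1 (0.995), the transcription factor gene Prox1 (0.992) and Lonrf1 (0.992). For Map1b they were the mitochondrial ribosomal protein gene Mrps23 (0.988), Phospho1 (0.987) and the zinc-finger gene Zfp691 (0.973), and all 3 had Qk-KO replicate 1 as the highest library and Qk-KO replicates 2 and 3 as the lowest.

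**Figure D4:**
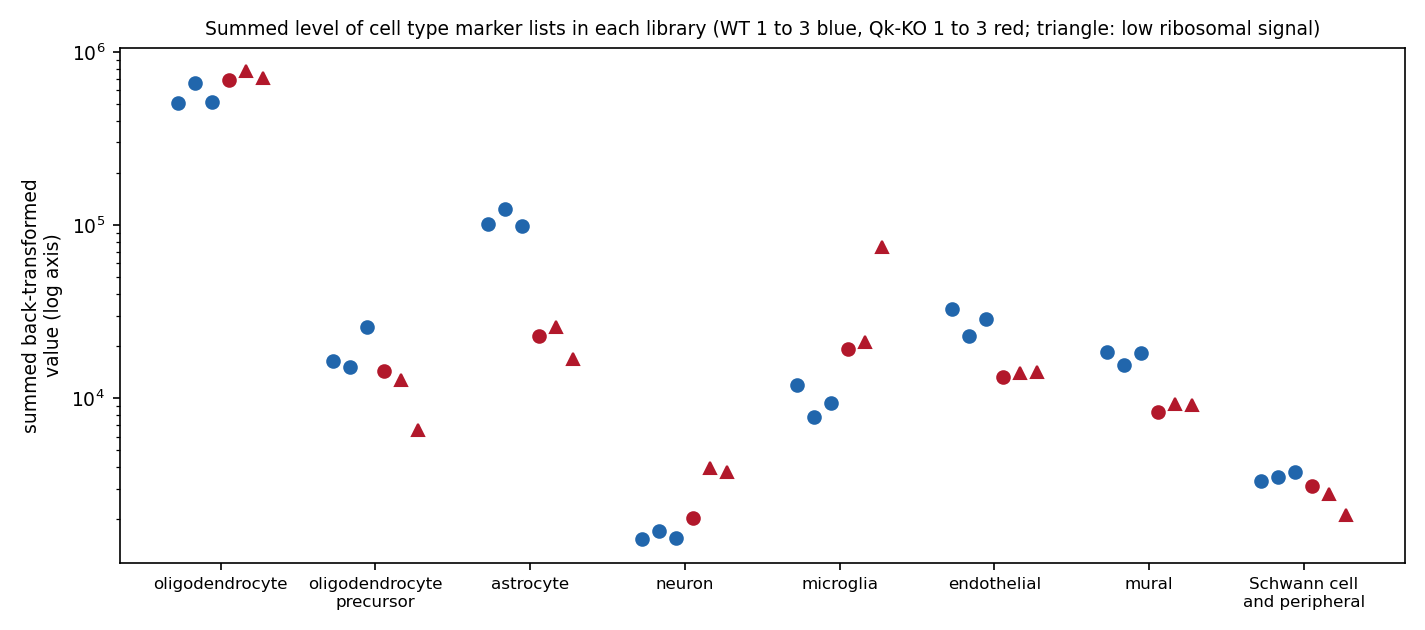
Summed back-transformed value of each cell type marker list by library on a log axis, blue for WT and red for Qk-KO, triangles for libraries with a low ribosomal share. Microglia markers reach 74584 in Qk-KO replicate 3, the library with the highest Egr2. In WT their highest sum is in replicate 1, where Egr2 is lowest. Astrocyte markers lie at 16790 to 25748 in Qk-KO against 98550 to 123815 in WT.

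**Figure D5:**
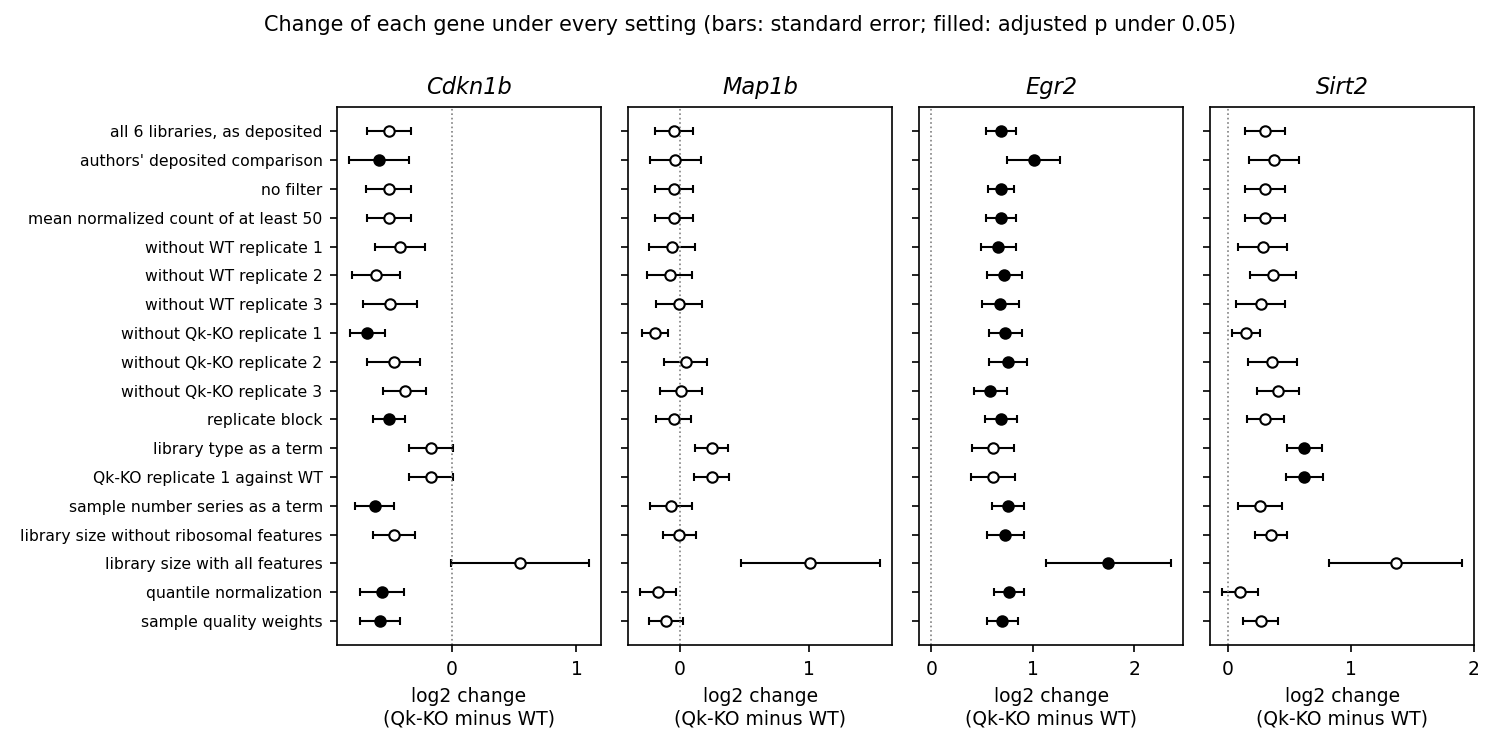
Log2 change of each gene (Qk-KO minus WT), bars showing the standard error, as deposited and under each alternative, filled where the adjusted p is under 0.05. Egr2 lies above 0 throughout, and Cdkn1b lies below 0 except with scaling by all reads, where it is at 0.55.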

How the data were processed

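RNA was measured in 3 WT and 3 Qk-KO libraries. The tools named in the submitters' processing notes are TopHat2 2.0.14, featureCounts, DESeq2 and FastQC, with build mm10, and the sources used here give neither annotation release nor strandedness. The deposited values are log2 values per library, a mean normalized count (a signal) over all libraries, and the authors' log2 fold change with its error and Wald statistic (scores), p-value and adjusted p-value, per the file headers. Each column carries the number of a sample's label.

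The planned limma fit (3.58.1, R 4.3.3, mean-variance trend, genotype only, no pseudocount) kept features whose mean normalized count was 20 or more, with Benjamini-Hochberg adjustment. It was run on simulated independent values with no effect of library kind, depth or shrinkage, so that run does not cover these. Size factors were read from the steps of the lowest mean normalized counts: all such means, 100% of 2829 at or below 0.5, were whole sums of steps to within 2e-06. Multiplied by size factors, back-transformed values gave approximate reads. GENCODE M21, on the same build, holds 46488 of the 46983 identifiers. Transcripts for the letter search are the APPRIS principal coding ones, the longest where several tie.

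The 4 genes, the lists and the rule for naming were chosen with earlier results of these data known. Named are Qk, the 3 features most like each gene, and up to 4 called genes per list and direction by adjusted p (otherwise the 2 most abundant). Genes not called that are named beside them were chosen after their values were seen, and a few genes are not reported here. Alternatives were the authors' comparison, other filters, each library left out, the replicate number, library kind or sample number series as a term, other scalings and sample weights. No label says whether equal replicate numbers pair the libraries, and the main fit does not pair them.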

Additional observations from a re-analysis of the deposited data

How the results depend on the processing

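Egr2 kept its direction and its call in 15 alternatives. It lost the call in 2, with library type as a term and in Qk-KO replicate 1 against WT (0.61 in both). These 2 are the same contrast, since every library with a low ribosomal share is Qk-KO. Only they compare libraries of 1 kind. The other 15 leave kind and genotype partly confounded, and wholly so without Qk-KO replicate 1, where every Qk-KO library has a low ribosomal share. Sirt2 became called with library type as a term and in Qk-KO replicate 1 against WT (0.62 in both). Cdkn1b became called in the authors' deposited comparison (-0.59), with the sample number series as a term (-0.62), with quantile normalization (-0.56) and with sample quality weights (-0.58). Left out one at a time, the libraries gave -0.68 to -0.38 for Cdkn1b, called only without Qk-KO replicate 1, and -0.20 to 0.046 for Map1b, which changed sign without Qk-KO replicate 2 or 3 (0.0048). Map1b also changed sign with library type as a term and in Qk-KO replicate 1 against WT (0.25 in both). Library size with all features, in which ribosomal reads enter the total, moved the median change of all genes from 0.03 to 1.09 and the share of calls that were higher from 48.2% to 97.3%. It gave 0.55 for Cdkn1b and 1.01 for Map1b, neither called, so changes are relative to the median gene as deposited.

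The number of genes called was 4330, 2370 to 5633 without 1 library (WT replicate 1 left out, 2663; WT replicate 3, 2568; Qk-KO replicate 2, 2370; Qk-KO replicate 1, 5633), 2258 with library type as a term, 2355 in Qk-KO replicate 1 against WT and 2447 with library size with all features. The cause of these differences was not tested. Same-numbered libraries deviated from their group means with correlations of 0.104, 0.00462 and 0.0821 for numbers 1, 2 and 3. WT replicates 1 and 3 correlated best with their own number, and WT replicate 2 did not (0.0217 with Qk-KO replicate 1). With a replicate block Cdkn1b was called (-0.51, adjusted p = 0.0321), no other call among the 4 changed, and 4345 genes were called. Library size with all features adds the same amount to every change, so only falls can change sign there. Called genes that kept their direction were 2 of 7 immediate early genes, 2 of 4 in the sirtuin list, 3 of 4 in the kinase inhibitor list, 4 of 5 in the Egr family list and 6 of 8 Egr2 targets. These counts follow from the size of each fall alone. Low depth limits Egr2 most, with under 100 estimated reads in each WT library.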

Other observations

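Over all tested genes with an annotated 3' UTR, the change in Qk-KO was set against the quaking element letters. By the number of cores with a partner in the 3' UTR, 0, 1, 2 and 3 or more, the median changes were 0.07 over 11430 genes, -0.04 over 1389, -0.16 over 297 and -0.13 over 94. The shares called lower were 14.2%, 19.2%, 22.6% and 21.3%, and those called higher 15.8%, 9.94%, 9.43% and 6.38%. The median 3' UTR length rose over the same groups from 945 to 2222, 3028 and 4647 bases. Among genes with a 3' UTR of 2000 to 4000 bases, the median changes were -0.02, -0.05, -0.20 and -0.04 over 2053, 489, 120 and 36 genes. In that band the shares called lower were 18.5%, 21.1%, 24.2% and 22.2%, and those called higher 13.7%, 9.61%, 10% and 11.1%, so the share called higher did not fall steadily with the number of cores as it did over all lengths. These values are a description with no test. Cdkn1b and Egr2 each have 1 core with a partner and had changes of -0.51 and 0.69.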
